A study of Homo sapiens with 12 samples.

Results

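The transcripts of 10 mitochondrial fission and fusion factors, MTFP1, DNM1L, FIS1, MFF, MIEF1, MIEF2, MFN1, MFN2, OPA1 and OMA1, were followed in Huh7 cells treated with Molidustat. They were chosen by symbol from the textbook machinery of mitochondrial shape, with earlier results of these data known. They are 10 of the 60666 genes in the count files. Huh7 is a human hepatocellular carcinoma line, and Molidustat inhibits the HIF prolyl hydroxylases, the enzymes that mark the hypoxia-inducible factors (HIF) for degradation when oxygen is present. Cells received 25 µM Molidustat or the vehicle DMSO alone for 24 h or 48 h. This gives 4 groups of 3 libraries, DMSO 24 h, Molidustat 24 h, DMSO 48 h and Molidustat 48 h. All are from the same line grown in the same high-glucose medium, and the methods describe no lowering of oxygen. The study asked how pharmacological HIF activation changes these cells, mitochondria included. RNA was read by sequencing from the 3′ end. The methods call the 3 libraries of a group biological replicates, so the p-values below measure the spread between cultures of a single line.

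Mitochondria are a network that is continually cut and rejoined. Fission is carried out at the outer membrane by the dynamin-like GTPase encoded by DNM1L, which is recruited from the cytosol by the receptors MFF, MIEF1, MIEF2 and FIS1, and is assisted at the inner membrane by MTFP1. Fusion of outer membranes requires the mitofusins MFN1 and MFN2, fusion of inner membranes requires OPA1, and the stress-activated protease OMA1 cleaves OPA1 and stops that fusion. When oxygen is low, cells are known to shift this balance and to remove mitochondria by mitophagy through the HIF-induced receptors BNIP3 and BNIP3L.

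DMSO 48 h replicate 2 stood apart from the other 11 libraries. It held 1499273 reads counted on genes, against 2312396 to 9179389 in the others, and 50.4% of its reads fell outside annotated genes, against 17.1 to 25.6%. Its log2 levels correlated with those of the other libraries at r = 0.707 to 0.782, whereas the other 11 correlated with each other at 0.855 to 0.956. Of the 14274 genes tested, 24.5% were highest and 29.1% lowest in this library, and of the 10 factors 3 were highest there (MFN1, MIEF1 and MIEF2) and 3 were lowest (MTFP1, OMA1 and FIS1). Values are from all 12 libraries unless stated, and the log2 fold changes of the 10 factors are also given without this one. Levels are given as CPM, the usual unit of a gene's reads relative to all gene reads of its library, scaled with the TMM factors of edgeR, in the order of replicates 1, 2 and 3. Fold changes came from the quasi-likelihood fit of edgeR, adjustment of p-values was by Benjamini-Hochberg over all genes tested, and a gene is called when its adjusted p is under 0.05 and its log2 fold change exceeds 1 in size.

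The libraries carried the transcripts of hepatocyte-derived cells. All 8 hepatocyte markers, ALB, AFP, APOA1, APOA2, APOB, TTR, FGB and SERPINA1, were counted in every library, and AFP was the most abundant of them with a mean of 7161 CPM. Their summed level was 13208, 14055 and 17350 CPM in DMSO 24 h, 18089, 16779 and 23620 CPM in Molidustat 24 h, 16531, 7531 and 16787 CPM in DMSO 48 h, and 22838, 25752 and 25750 CPM in Molidustat 48 h. This sum moved with the treatment at 48 h, where the groups did not overlap, and was lowest in DMSO 48 h replicate 2. In the fit 7 of the 8 markers had a positive log2 fold change at each time and 0 were called, with 1 of the 8 at an unadjusted p under 0.05 at 24 h, against 5.25% of all genes, and 5 at 48 h, against 13.3%. These were 3 higher at 24 h, against 9.03% of all genes, and 4 higher and 1 lower at 48 h, against 6.6%, when DMSO 48 h replicate 2 was left out. Without DMSO 48 h replicate 2, SERPINA1, a secreted protease inhibitor, was called higher at 24 h (1.16, adjusted p = 0.0149 by edgeR) and 48 h (1.23, adjusted p = 0.0474). The 7 markers of leukocytes, endothelium and fibroblasts (PTPRC, CD68, PECAM1, VWF, COL1A1, COL1A2 and DCN) summed to between 1.84 and 15.4 CPM per library. CD68 was the most abundant of these with a mean of 2.84 CPM, and VWF was at 0 in all libraries. The part of the shift in hepatocyte markers in the results below was not tested. In bulk RNA fewer cells of a kind and less RNA per cell cannot be told apart.

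All 10 factors passed the filter on low counts, with 483 (MIEF2) to 3996 (DNM1L) reads over the 12 libraries. With all libraries, 0 of the 10 were called by edgeR at 24 h, where 0.231% of all genes tested were called higher and 0% lower, and 0 of the 10 were called at 48 h, where 0.21% were called higher and 0.021% lower. DESeq2 also called 0 of the 10 at each time, and called 0.931% at 24 h and 2.57% at 48 h of the genes it gave an adjusted p. At an unadjusted p under 0.05 there was 1 of the 10 at 24 h, MTFP1, where 5.25% of all genes tested passed, and there were 3 at 48 h, MTFP1 and FIS1 higher and MFN1 lower, where 13.3% passed. There was 1 at each time without DMSO 48 h replicate 2, MTFP1, beside 9.03% of all genes at 24 h and 6.6% at 48 h. Their median log2 fold change was 0.05 at 24 h and -0.05 at 48 h, beside 0.02 and 0.01 for all genes tested, and the 48 h median turned to 0.18 without DMSO 48 h replicate 2. Without DMSO 48 h replicate 2, 1 of the 10, MTFP1, was called higher at 24 h, where the share over all genes was 0.728%, and 0 of the 10 were called at 48 h, where 0.315% of genes were called higher. Counting groups whose libraries did not overlap, 2 of the 10 (MTFP1 and MIEF2) were higher with Molidustat at 24 h against 7.26% of all genes, and 1 (MIEF1) was lower against 5.02%. At 48 h 1 of the 10 (MTFP1) was higher against 9.96% of all genes, and 1 (MFN2) was lower against 8.02%. For any one gene, permuting 3 libraries against 3 exactly and two-sided gives no p under 0.1.

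**Figure D1:**
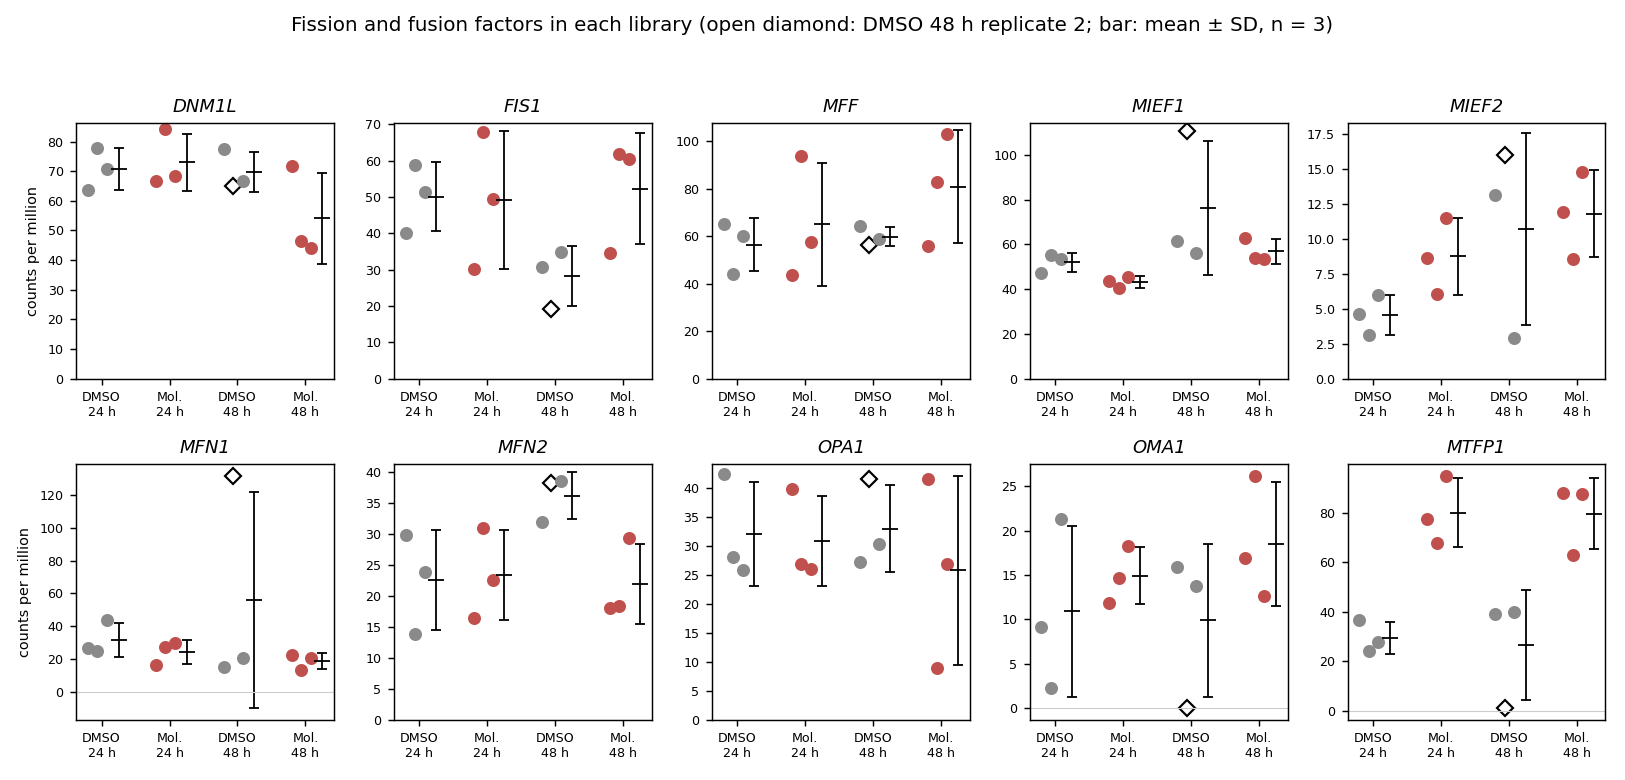
Level of each fission and fusion factor in CPM, on axes of their own, in the 4 groups; each point is a library, the open diamond is DMSO 48 h replicate 2, and the bar beside the points is the group mean ± SD (n = 3). The 6 Molidustat libraries of MTFP1 lie between 63.1 and 95.2 CPM, above all 6 DMSO libraries, whereas the high DMSO 48 h mean of MFN1 comes from a single point at 132 CPM.

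MTFP1, an inner membrane protein that promotes fission, was the factor with the highest fold change at both times. It measured 36.7, 24.3 and 27.7 CPM in DMSO 24 h and 77.8, 67.7 and 95.2 CPM in Molidustat 24 h. At 48 h it measured 39.0, 1.06 and 39.8 CPM in DMSO and 88.3, 63.1 and 87.8 CPM with Molidustat. Every Molidustat library was above every DMSO library at both times, and the DMSO value of 1.06 CPM, a single read, belonged to DMSO 48 h replicate 2. The log2 fold change was 1.44 (SE 0.57, 95% interval 0.22 to 2.65) at 24 h by edgeR, a 2.71-fold difference, with adjusted p = 0.825. At 48 h it was 1.49 (SE 0.57, 0.27 to 2.70) with adjusted p = 0.267.

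Leaving out DMSO 48 h replicate 2 altered these values for MTFP1 in different ways at the 2 times. At 24 h the log2 fold change stayed at 1.45 while its SE fell to 0.27 (95% interval 0.88 to 2.02) and the adjusted p to 0.0113, so that the rise was called. That library belongs to neither 24 h group and enters this comparison only through the spread that all groups share, the scaling and the genes tested. At 48 h the log2 fold change became 1.0 (SE 0.30, 0.37 to 1.64), a 2.01-fold difference, with adjusted p = 0.303 by edgeR, and it was not called. Over the alternative settings the log2 fold change of MTFP1 stayed positive, from 1.28 to 1.62 at 24 h and from 1.0 to 1.80 at 48 h. The only other call was at 48 h with no filter on low counts (log2 fold change 1.46, adjusted p = 0.0218), a setting that called 0.542% of 28430 genes higher. The difference of the response between 48 h and 24 h was 0.05 (95% interval -1.64 to 1.74) with all libraries and -0.44 (-1.27 to 0.39) without that library. It was called for 0 of the 10 factors by edgeR, which called 0% of all genes, and for 0 by DESeq2, which called 0.0142% of the genes it gave an adjusted p. In that comparison 0 of the 10 had an unadjusted p under 0.05 by edgeR, against 6.78% of all genes.

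**Figure D2:**
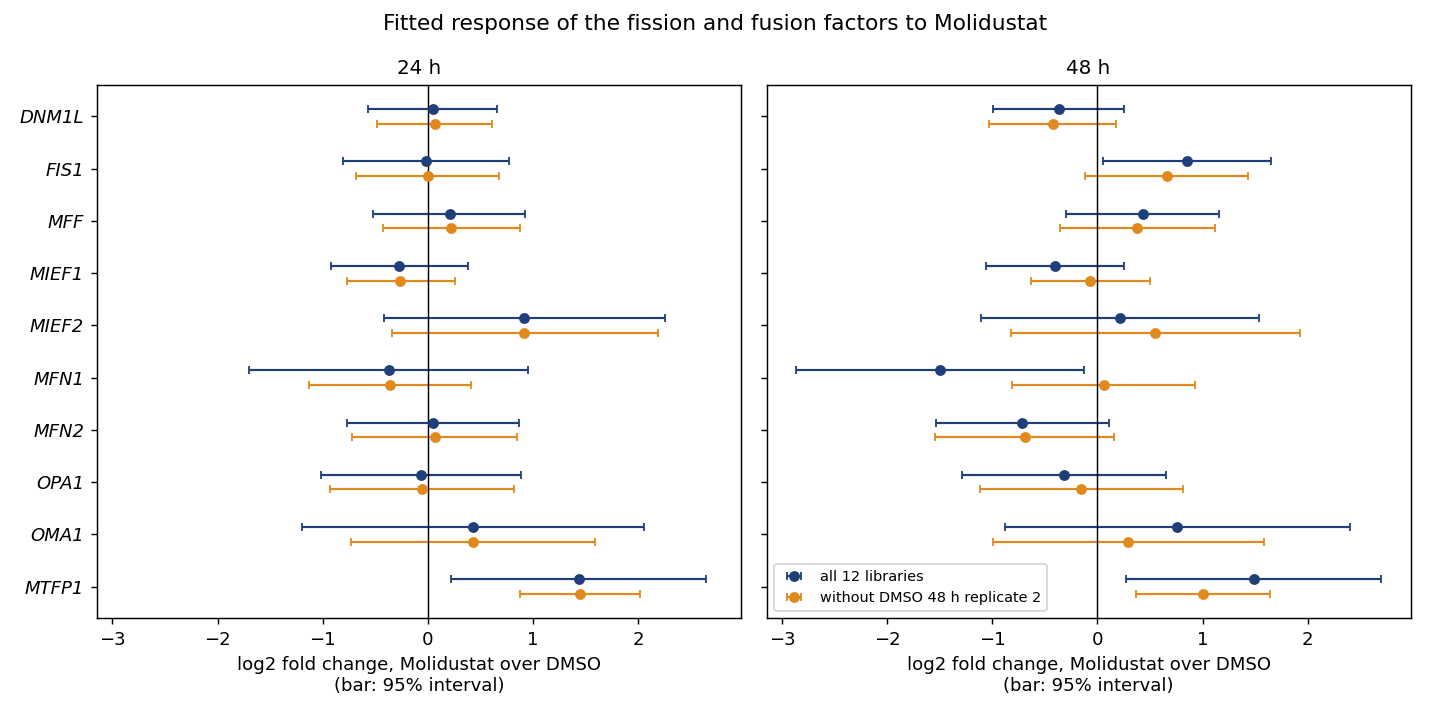
Log2 fold change of each factor with Molidustat at 24 h (left) and 48 h (right) and its 95% interval, fitted with all 12 libraries (blue) and without DMSO 48 h replicate 2 (orange). The intervals of MTFP1 lie above 0 in all 4 fits, and that of MFN1 at 48 h lies below 0 in the fit with all libraries (-2.87 to -0.13) and spans 0 without that replicate (-0.81 to 0.93).

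MTFP1 lies on chromosome 22 (GRCh38, chr22:30425623-30429054, plus strand). A readthrough gene known by its identifier ENSG00000249590, looked up after the values were seen, shares 890 exon bases with it on the same strand. The readthrough gene measured 26.6, 20.8 and 20.9 CPM in DMSO 24 h, 58.4, 51.1 and 69.4 CPM in Molidustat 24 h, 27.2, 1.06 and 28.3 CPM in DMSO 48 h, and 63.4, 45.5 and 64.3 CPM in Molidustat 48 h. It had between 0.698 and 0.857 reads for each MTFP1 read in 11 libraries, and 1 read of each gene in DMSO 48 h replicate 2. SEC14L2, the upstream neighbour within whose bounds the readthrough gene starts, had 0 to 4 reads per library. The log2 fold change of the readthrough gene was 1.39 (SE 0.54) at 24 h and 1.50 (SE 0.54) at 48 h, with adjusted p of 0.806 and 0.241 by edgeR. In the fit without DMSO 48 h replicate 2 these were 1.40 (adjusted p = 0.0193, called) and 1.04 (adjusted p = 0.302). At 48 h it was called with no filter on low counts (1.47, adjusted p = 0.0321) and by limma-voom (1.16, adjusted p = 0.0371). Reads of the 2 genes cannot be told apart in the shared exons, and how the counting divided them is not given in the sources used here.

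**Figure D3:**
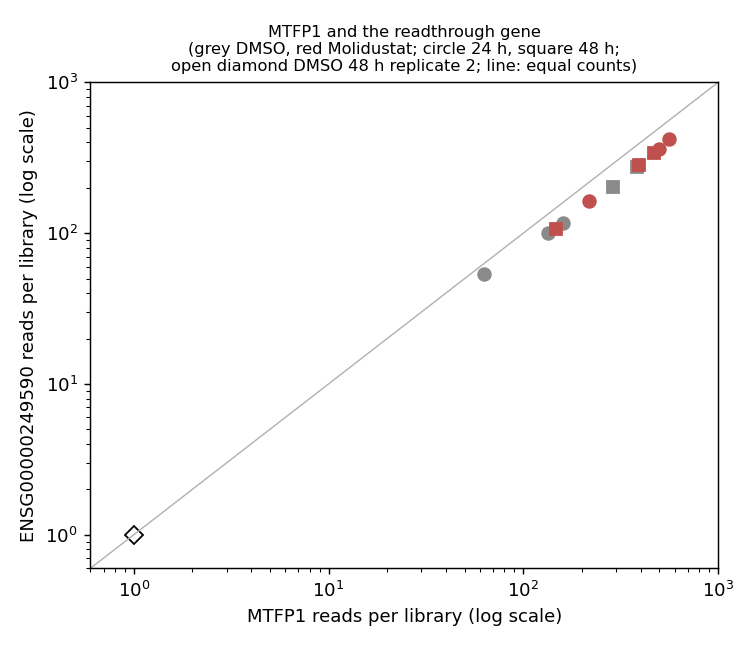
Reads of MTFP1 (horizontal axis) and of ENSG00000249590 (vertical axis) in each of the 12 libraries, both on log scales, with the line of equal counts. The points of 11 libraries lie in a band just under the line, with 0.698 to 0.857 readthrough reads per MTFP1 read, and DMSO 48 h replicate 2 lies on it with 1 read of each.

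The HIF response core is known to be the bases ACGTG or GCGTG. RefSeq promoter windows (GRCh38.p14, 250 bases before to 50 after the start) were found for all 10 factors and searched on both strands, where either core occurred in 48.4% of 35116 windows and ACGTG in 21.4%. Windows of 4 of the 10 factors held a match: MTFP1, OPA1, MFF and MIEF2. Those of DNM1L, FIS1, MIEF1, MFN1, MFN2 and OMA1 held none. MFF had 3 windows and MIEF2 had 2, so this count by gene is not in the same unit as the share by window. The MTFP1 window had 1 match, 104 bases before the RefSeq start, and the stretch printed lies in an exon of 1 of the 6 MTFP1 transcripts of GENCODE 44. The BNIP3 window on chromosome 10 had 6, of which 2 are a single palindrome read on both strands, and its stretch lies in no exon of its 4 transcripts. The stretches around these matches are shown for MTFP1, the factor with the highest fold change, and for BNIP3, a called gene, with matches on either strand in capitals, 5′ to 3′ on the strand of the gene; a match is a description of the letters and not of binding.
MTFP1, chr22:30425652-30425680, plus strand: agctcagagaaaACGTGacgaaaaccagt
BNIP3, chr10:131982019-131982070, minus strand: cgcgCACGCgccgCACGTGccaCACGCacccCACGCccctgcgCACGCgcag

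DNM1L, the GTPase that constricts the outer membrane, had overlapping groups at both times. It measured 63.6, 77.8 and 70.6 CPM in DMSO 24 h, 66.7, 84.1 and 68.3 CPM in Molidustat 24 h, 77.4, 64.9 and 66.8 CPM in DMSO 48 h, and 71.9, 46.3 and 44.2 CPM in Molidustat 48 h. The 2 lowest libraries were both of Molidustat 48 h, while the third of that group was among the DMSO values. Its log2 fold change was 0.05 (95% interval -0.57 to 0.66) at 24 h and -0.37 (-0.99 to 0.25) at 48 h. In the fit without DMSO 48 h replicate 2 it was 0.07 and -0.42. With all libraries both intervals lie within a 2-fold change; without that replicate the 48 h interval reached -1.03.

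The receptors that recruit this GTPase gave values on either side of 0. MFF, the principal receptor, measured 65.2, 43.9 and 60.1 CPM in DMSO 24 h, 43.7, 93.8 and 57.5 CPM in Molidustat 24 h, 64.2, 56.4 and 58.7 CPM in DMSO 48 h, and 56.0, 82.8 and 103 CPM in Molidustat 48 h. The groups overlapped, and the Molidustat libraries spread more widely than the DMSO ones (SD 25.9 and 23.8 CPM against 11.1 and 4.03 CPM). For MFF the log2 fold change was 0.21 (-0.52 to 0.93) at 24 h and 0.43 (-0.30 to 1.16) at 48 h, and 0.22 and 0.38 without DMSO 48 h replicate 2.

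FIS1, an outer membrane adaptor, measured 40.0, 58.9 and 51.4 CPM in DMSO 24 h, 30.1, 67.9 and 49.4 CPM in Molidustat 24 h, 30.6, 19.2 and 34.9 CPM in DMSO 48 h, and 34.6, 61.8 and 60.3 CPM in Molidustat 48 h. At 48 h only Molidustat replicate 1 came within the DMSO range, just under DMSO replicate 3. At 48 h the log2 fold change was 0.85 (SE 0.38, 0.05 to 1.65) with adjusted p = 0.342 by edgeR, and 0.66 (-0.12 to 1.43) with adjusted p = 0.829 without DMSO 48 h replicate 2. At 24 h it was -0.02 (-0.81 to 0.77), and 0.00 without that library. The difference between the responses at the 2 times was 0.87 (SE 0.53, adjusted p = 0.82).

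MIEF1 and MIEF2 encode related outer membrane receptors. MIEF1 measured 47.3, 55.1 and 53.7 CPM in DMSO 24 h and 43.7, 40.3 and 45.4 CPM in Molidustat 24 h, where all treated libraries were lower. It measured 61.7, 111 and 56.4 CPM in DMSO 48 h and 63.1, 54.1 and 53.4 CPM in Molidustat 48 h, where the groups overlapped and DMSO replicate 2 was by far the highest. In the fit MIEF1 had a log2 fold change of -0.27 (SE 0.31, -0.92 to 0.38, adjusted p = 0.999) at 24 h and -0.40 (SE 0.31, adjusted p = 0.642) at 48 h, and these became -0.26 (SE 0.24) and -0.07 (SE 0.27) without that library. MIEF2, the factor with the fewest reads, measured 4.59, 3.08 and 5.99 CPM in DMSO 24 h, 8.60, 6.07 and 11.5 CPM in Molidustat 24 h, 13.1, 16.0 and 2.89 CPM in DMSO 48 h, and 11.9, 8.58 and 14.8 CPM in Molidustat 48 h. All treated libraries were higher at 24 h, with DMSO replicate 3 just below Molidustat replicate 2, and the groups overlapped at 48 h. Its log2 fold change was 0.92 (SE 0.63, -0.42 to 2.26, adjusted p = 0.999 by edgeR) at 24 h and 0.21 (SE 0.62) at 48 h. Without DMSO 48 h replicate 2 these were 0.92 and 0.55. Over the alternative settings the 48 h value of MIEF2 ran from -0.27 to 1.28.

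The mitofusins, which tether and fuse outer membranes, differed from each other at 48 h in what their values rested on. MFN1 measured 26.4, 25.0 and 43.6 CPM in DMSO 24 h, 16.1, 27.4 and 29.6 CPM in Molidustat 24 h, 14.9, 132 and 20.8 CPM in DMSO 48 h, and 22.2, 13.3 and 20.5 CPM in Molidustat 48 h. Apart from the 132 CPM of DMSO 48 h replicate 2, no library exceeded 43.6 CPM, and the groups overlapped at both times. In the fit MFN1 was at -0.37 (-1.70 to 0.95) on the log2 scale at 24 h, and at -0.36 without DMSO 48 h replicate 2. At 48 h it was -1.50 (SE 0.65, adjusted p = 0.327 by edgeR) with all libraries and 0.06 (SE 0.41, -0.81 to 0.93) without that library, so the lower 48 h value rested on it.

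MFN2 measured 29.9, 13.9 and 23.8 CPM in DMSO 24 h, 16.5, 31.0 and 22.5 CPM in Molidustat 24 h, 31.9, 38.3 and 38.5 CPM in DMSO 48 h, and 18.0, 18.4 and 29.3 CPM in Molidustat 48 h. All 3 treated libraries were below all 3 vehicle libraries at 48 h, DMSO replicate 2 lay close to replicate 3 of its group, and the groups overlapped at 24 h. The 48 h log2 fold change of MFN2 was -0.72 (SE 0.39, -1.54 to 0.11) with adjusted p = 0.463 by edgeR. Without DMSO 48 h replicate 2 it was -0.69 (SE 0.41, -1.55 to 0.16) with adjusted p = 0.852. At 24 h it was 0.05 (-0.77 to 0.87), and 0.07 without that library.

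OPA1, the inner membrane fusion GTPase, measured 42.5, 28.1 and 25.8 CPM in DMSO 24 h, 39.8, 26.9 and 26.0 CPM in Molidustat 24 h, 27.2, 41.5 and 30.4 CPM in DMSO 48 h, and 41.6, 9.01 and 26.9 CPM in Molidustat 48 h. The groups overlapped at both times, and the lowest value was Molidustat 48 h replicate 2. OPA1 had log2 fold changes of -0.06 (-1.02 to 0.89) at 24 h and -0.32 (-1.29 to 0.65) at 48 h, and -0.05 and -0.16 without DMSO 48 h replicate 2. OMA1, the protease that cleaves OPA1, measured 9.19, 2.31 and 21.3 CPM in DMSO 24 h, 11.8, 14.7 and 18.3 CPM in Molidustat 24 h, 15.9, 0 and 13.8 CPM in DMSO 48 h, and 16.9, 26.2 and 12.6 CPM in Molidustat 48 h. The groups overlapped at both times, and the 0 of DMSO 48 h replicate 2 allows up to 3.18 CPM (3 reads, counting error only). OMA1 had log2 fold changes of 0.43 (-1.20 to 2.06) at 24 h and 0.76 (-0.88 to 2.40) at 48 h. Without that library they were 0.43 (-0.73 to 1.59) and 0.29 (-0.99 to 1.58). Leaving out any 1 of the libraries, the 24 h value of OMA1 ran from -0.03 to 1.32. OMA1 shares 257 exon bases with DAB1 on its strand, OPA1 208 with OPA1-AS1 and MFF 507 with MFF-DT, both on the opposite strand, MIEF1 213 with MIURF on its strand, and DNM1L 202 with ENSG00000275854 on the opposite strand, and whether the counting used strand is not given in the sources used here.

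No factor was called for culture time. Between 48 h and 24 h 0 of the 10 were called by edgeR in DMSO, where 0.00701% of genes tested were called, and 0 of the 10 in Molidustat, where 0% were. DESeq2 called 0 of the 10 in either, and 0.295% of genes in DMSO and 0.0587% in Molidustat. By edgeR 0 of the 10 reached an unadjusted p under 0.05, against 8.14% of all genes in DMSO and 4.58% in Molidustat. In DMSO the libraries of MFN2 and MIEF1 were all higher at 48 h (2 of the 10 against 5.75% of all genes) and those of FIS1 all lower (1 of the 10 against 6.19%). The log2 changes were 0.68 for MFN2, 0.53 for MIEF1 and -0.79 for FIS1. Without DMSO 48 h replicate 2 they were 0.66, 0.21 and -0.58. The SE in both fits lay between 0.27 and 0.41. Without that library MTFP1 was also higher at 48 h in all libraries and MFN1 lower, though fewer libraries separate more easily. The share of all genes that separated in that setting was not counted, so nothing is read from these separations. The log2 change of MTFP1 was -0.06 (SE 0.57) with all libraries and 0.43 (SE 0.29) without DMSO 48 h replicate 2. In Molidustat MIEF1 was again higher at 48 h in all libraries (1 of the 10 against 7.15%; log2 change 0.40, SE 0.31) and 0 were lower in all, against 6.79%. The DMSO 48 h libraries enter both the time comparison in DMSO and the treatment comparison at 48 h, so the higher DMSO 48 h level of MFN2 and its lower ratio with Molidustat share the same libraries. For MFN1 the log2 change in DMSO was 0.74 with all libraries and -0.81 without replicate 2.

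The order of libraries by MTFP1 was set beside that of every other gene tested, as a description over libraries that differ in depth and share groups. Over 12 libraries the 5 genes with the highest Pearson correlation of log2 CPM with MTFP1 were the readthrough gene ENSG00000249590 (r = 0.999), ADPRS (0.974), DGCR6L (0.969), ARF4 (0.964) and TMEM45A (0.963). Over the 11 libraries without DMSO 48 h replicate 2 they were the readthrough gene (0.995), BNIP3L (0.973), SPAG4 (0.962), FN1 (0.960) and TXNIP (0.958), so 1 gene was shared by the 2 lists. MTFP1 and MFN1 correlated at r = -0.84 over 12 libraries and at -0.29 over 11.

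Of the 4 mitophagy receptors on the list beside these factors, BNIP3 and BNIP3L rose at both times. BNIP3 measured 176, 196 and 103 CPM in DMSO 24 h, 1125, 975 and 1232 CPM in Molidustat 24 h, 175, 153 and 207 CPM in DMSO 48 h, and 1126, 1105 and 1203 CPM in Molidustat 48 h. BNIP3L measured 119, 60.5 and 99.6 CPM in DMSO 24 h, 629, 534 and 600 CPM in Molidustat 24 h, 169, 58.6 and 142 CPM in DMSO 48 h, and 693, 592 and 614 CPM in Molidustat 48 h. The groups of both genes lay far apart, and DMSO 48 h replicate 2 lay with the other vehicle libraries for BNIP3. The log2 fold change of BNIP3 was 2.81 (SE 0.34, adjusted p = 0.000977) at 24 h and 2.68 (SE 0.34, adjusted p = 0.00149) at 48 h, and that of BNIP3L 2.66 (SE 0.40, adjusted p = 0.00528) and 2.35 (SE 0.39, adjusted p = 0.0148). The values without DMSO 48 h replicate 2 were 2.83 and 2.57 for BNIP3 and 2.67 and 2.01 for BNIP3L, all called. Over all alternatives the log2 fold change ran from 2.56 to 2.99 and from 2.57 to 2.81 for BNIP3, and from 2.42 to 2.87 and from 2.01 to 2.63 for BNIP3L. The call of BNIP3L at 24 h was lost without DMSO 24 h replicate 2 (2.42, adjusted p = 0.0732), and at 48 h without any of Molidustat 48 h replicates 1, 2 and 3 (2.26, 2.38 and 2.36, adjusted p = 0.0934, 0.0664 and 0.0801). Fitted on the 2 groups of 48 h alone, BNIP3 was 2.66 (adjusted p = 0.0569) and BNIP3L 2.34 (adjusted p = 0.212).

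FUNDC2, related to the hypoxia-responsive receptor FUNDC1, measured 27.1, 39.3 and 26.6 CPM in DMSO 24 h, 72.1, 83.9 and 74.4 CPM in Molidustat 24 h, 24.3, 14.9 and 29.5 CPM in DMSO 48 h, and 62.5, 55.3 and 75.7 CPM in Molidustat 48 h. The paper names FUNDC2 together with MTFP1 as a gene that promotes fission in hepatocellular carcinoma. Placing it with the mitophagy receptors was therefore a choice of the list, and it could also be placed with the fission factors. The groups of FUNDC2 did not overlap at either time, and its log2 fold change was 1.31 (SE 0.32, adjusted p = 0.166) and 1.46 (SE 0.33, adjusted p = 0.0982) by edgeR. Without DMSO 48 h replicate 2 it was 1.33 (adjusted p = 0.0208) at 24 h, where it was called, and 1.25 (adjusted p = 0.114) at 48 h. DESeq2 with all libraries called FUNDC2 at both times (adjusted p = 0.00499 and 0.00181), and at 48 h it was also called with no filter (0.0287) and by limma-voom (0.00399). FUNDC1 had log2 fold changes of -0.01 (-0.96 to 0.95) and 0.09 (-0.87 to 1.04), the second of which was -0.29 without that library, with overlapping groups.

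**Figure D4:**
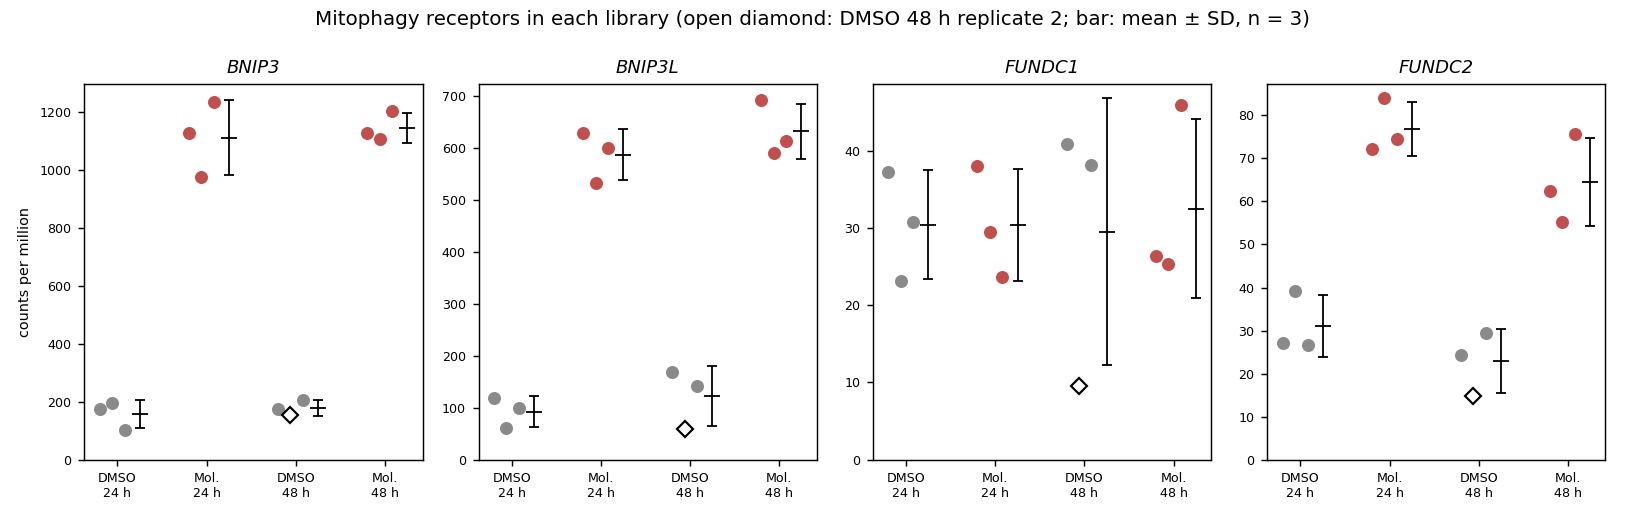
Level of the 4 genes listed as mitophagy receptors in CPM, on axes of their own, in the 4 groups. Each point is a library, the open diamond is DMSO 48 h replicate 2, and the bar is the group mean ± SD (n = 3). BNIP3 lies between 975 and 1232 CPM in the 6 Molidustat libraries and at or below 207 CPM in the 6 DMSO libraries, whereas the groups of FUNDC1 overlap.

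The HIF target genes that served as a check of the treatment had positive values with all libraries. Of the 6, 5 were tested with all libraries (CA9 was not), and 5 of 5 had a positive log2 fold change at each time, with medians of 1.43 and 1.62. PDK1, a kinase that restrains pyruvate entry into mitochondria, rose at 24 h (3.60, SE 0.68, adjusted p = 0.0339) and was 1.64 at 48 h (adjusted p = 0.271) by edgeR. The 48 h difference of PDK1 went from 3.12-fold to 5.55-fold (log2 2.47, adjusted p = 0.0698) without DMSO 48 h replicate 2, and it was called at 48 h with no filter (1.68, adjusted p = 0.00803) and by limma-voom (2.34, adjusted p = 0.000136). The 24 h call of PDK1 was lost without DMSO 24 h replicate 1 or 2, Molidustat 24 h replicate 1 or 2 or Molidustat 48 h replicate 2, with adjusted p of 0.225, 0.147, 0.077, 0.141 and 0.0571 in that order, and with RLE factors (0.0529) or the replicate number as a block (0.0977). NDRG1 had log2 fold changes of 2.52 and 2.20, VEGFA, an angiogenic growth factor, 1.0 and 0.86, ANKRD37 1.43 (SE 1.50) and 1.62 (SE 1.39), and EGLN3, a HIF prolyl hydroxylase, 1.05 (SE 0.99) and 0.63 (SE 1.0). Single DMSO 24 h libraries moved the 24 h values: without replicate 2 or 3, ANKRD37 was 6.47 or 0.76, EGLN3 0.51 or 2.14, and PDK1 3.19 or 4.87. ANKRD37 had 7 reads in DMSO 24 h replicate 2 and 0 in replicates 1 and 3, so the fitted 6.47 depends on the prior count and is no bound. With all libraries and the filter on low counts these 4 were not called by edgeR. NDRG1 was called at 24 h and 48 h with no filter (adjusted p = 0.00485 and 0.00634) and by DESeq2 (0.00241 and 0.00851), and at 48 h by limma-voom (0.00027). VEGFA was called at 24 h by DESeq2 (1.01, adjusted p = 0.0424). Without DMSO 48 h replicate 2, NDRG1 was called at 24 h (adjusted p = 0.0265), CA9 was tested with log2 fold changes of 5.41 (adjusted p = 0.487) and 3.02 (0.872), and EGLN3 was 1.71 at 48 h. CA9 was at 0 CPM in every DMSO 24 h library and at a mean of 0.98 CPM in Molidustat 24 h. Its 5.41 (SE 2.27) therefore also depends on the prior count and is no bound.

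Further genes of mitochondrial dynamics and structure did not pass the test. Of 21 other dynamics factors, which include fission and fusion regulators, ubiquitin ligases and lipid enzymes of the outer membrane, 21 were tested and 0 were called by edgeR at either time, with 1 of the 21 at an unadjusted p under 0.05 each time, against 5.25% and 13.3% of all genes. Their medians were -0.25 and -0.08, the second of which was -0.21 without DMSO 48 h replicate 2. By mean of the 2 times the lowest was PLD6, an outer membrane lipid hydrolase, with log2 fold changes of -1.47 (SE 1.26) and -2.56 (SE 1.42) from at most 55 reads in a library (at 24 h -0.86 without Molidustat 24 h replicate 2 and -2.75 without replicate 3), and the highest was MARCHF5, a ubiquitin ligase, with 0.25 and 0.25, the second of which was -0.21 without DMSO 48 h replicate 2. Of 17 genes of the inner membrane and of OPA1 processing, 16 were tested (APOOL was not) and 0 were called, with 0 of the 16 at an unadjusted p under 0.05 at 24 h and 2 at 48 h, against the same shares of all genes. Their medians were -0.11 and 0.22, and the second was -0.04 without DMSO 48 h replicate 2. By mean of the times ROMO1, a regulator of cristae and of OPA1, was the highest with 0.23 (SE 0.44) and 1.26 (SE 0.45, adjusted p = 0.239 by edgeR), and PHB1, a prohibitin that controls OPA1 processing, was the lowest with -0.62 (SE 0.34) and -0.19 (SE 0.34). Without DMSO 48 h replicate 2 the 48 h values were 0.94 (SE 0.40) for ROMO1 and -0.43 (SE 0.26) for PHB1.

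The 10 markers of mitochondrial mass gave 0 calls by edgeR and medians of -0.27 and -0.14 (the second -0.33 without DMSO 48 h replicate 2), with 0 of the 10 at an unadjusted p under 0.05 at 24 h and 2 at 48 h, against 5.25% and 13.3% of all genes. By mean of the times VDAC1, an outer membrane channel, was the highest with 0.19 (SE 0.33) and 0.38 (SE 0.33), the second of which was 0.13 without DMSO 48 h replicate 2. TOMM22, a subunit of the outer membrane import complex, was the lowest with -0.39 (SE 0.54) and -1.67 (SE 0.55, adjusted p = 0.225). Its DMSO 48 h libraries measured 152, 1007 and 281 CPM and its Molidustat 48 h libraries 161, 134 and 156 CPM. The highest of these was again DMSO 48 h replicate 2, and the 48 h value of TOMM22 without it was -0.54 (SE 0.35). TOMM22 was called lower at 48 h with no filter on low counts (-1.61, adjusted p = 0.00604 by edgeR) and without DMSO 48 h replicate 1 (-2.06, adjusted p = 0.043), 2 settings that keep that library. The chart of the gene lists places the factors among these lists.

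**Figure D5:**
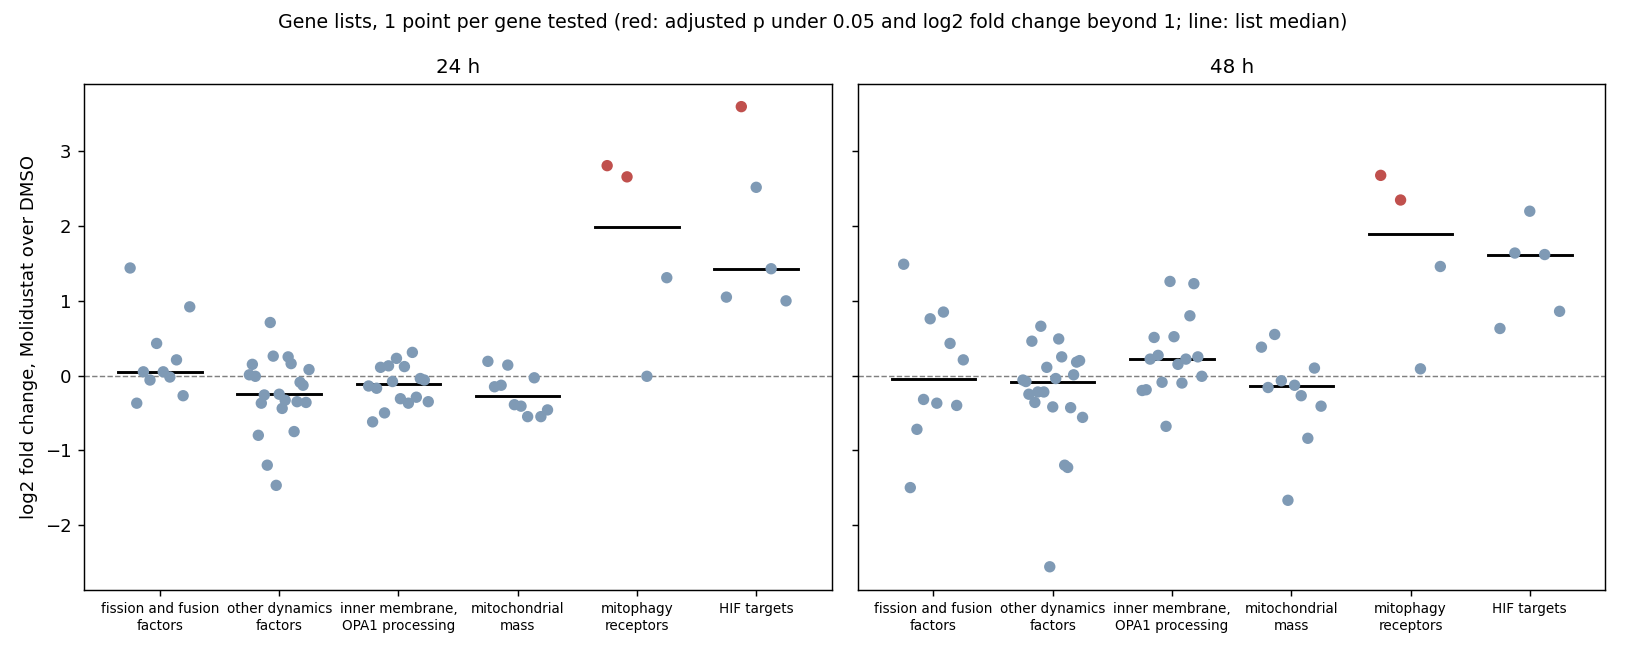
Log2 fold change with Molidustat at 24 h (left) and 48 h (right) in the fit with all 12 libraries, 1 point for each gene tested in 6 gene lists, with the list median as a line and called genes in red. The factors of fission and fusion have medians of 0.05 and -0.05 (the second 0.18 without DMSO 48 h replicate 2) and 0 called genes, beside medians of 1.99 and 1.90 and 2 called genes of 4 for the genes listed as mitophagy receptors.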

How the data were processed

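The deposited files hold raw counts per Ensembl gene for each of 12 Huh7 libraries, which the authors made with the QIAseq UPX 3′ Transcriptome kit. The submitters' processing notes name bcl2fastq 2.17.1.14, cutadapt 1.9.1, STAR 2.7.9a, HTSeq 0.11.2 and GRCh38. The annotation release, the strand setting and the use of molecular identifiers are not given in the sources used here. The 5 summary lines of each file were left out of library sizes and tests. Reads outside genes were 17.1 to 50.4% and ambiguous ones 1.2 to 2.6%. The line for low quality repeated the line for multiple alignment and was not added. Gene totals ran from 1499273 to 9179389, which sets the counting error.

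Symbols and coordinates came from GENCODE 44, and promoter windows from RefSeq (GRCh38.p14). Genes passing filterByExpr (minimum count 10, total 15; 14274 of the 28430 genes with a read) were fitted with edgeR 4.0.16 (TMM, quasi-likelihood, R 4.3.3) on the 4 group means of all 12 libraries. Alternatives were RLE factors, total counts, other filters, DESeq2 1.42.0, limma 3.58.1 with voom and quality weights, the 2 groups alone, a replicate block, thinning, no threshold on the fold change and each library left out. Scripts were tested on simulated data. Figures were drawn with matplotlib 3.10.9. Correlations used log2 CPM with a prior count of 2. The genes named were all members, the mitophagy receptors and HIF targets, genes of the other lists that were called or whose groups did not overlap at both times (0 met either), the highest and lowest of each list, and the 5 genes most like MTFP1; those most like MFN1 are not reported here. The members and lists were chosen with earlier results of these data known.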

Additional observations from a re-analysis of the deposited data

How the results depend on the processing

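With all 12 libraries edgeR called 33 genes and 0 of the 10 factors at 24 h, with the same counts at 48 h. Without a filter on low counts these were 106 and 764 genes, and 1 factor, MTFP1, at 48 h. Requiring at least 10 reads in every library gave 15 and 15 and left MTFP1, OMA1 and MIEF2 without a value. DESeq2 called 142 and 353, the 2 groups alone 57 and 7, and limma-voom with quality weights 64 and 278. Leaving out 1 library gave 20 (without DMSO 24 h replicate 1) to 116 (without DMSO 48 h replicate 2) at 24 h, with 0 to 1 factors called (MTFP1, without DMSO 48 h replicate 2), and 13 (without Molidustat 48 h replicate 3) to 327 (without DMSO 48 h replicate 1) at 48 h, with 0 factors. The difference between times gave 0 genes, 321 with no filter and 4 by DESeq2, and has no value on 2 groups. In DMSO, 48 h against 24 h gave 1 gene, 3 with total counts, 400 with no filter, 0 with 10 reads in every library, 42 by DESeq2, 0 on the 2 groups, 2 after thinning and 2 by limma-voom, and 1 to 2 leaving out a library. In Molidustat it gave 0 genes, 4 with no filter, 12 by DESeq2, 1 by limma-voom, and 0 to 4 leaving out a library. The cause of these shifts was not tested. Total counts moved the median of all genes tested at 48 h from 0.01 to 0.13.

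With the replicate number as a block 30 and 22 genes were called at 24 h and 48 h, 0 for the difference, 1 and 0 for time, and 0 factors. Same-numbered libraries deviated from their group means with correlations of -0.0902 to 0.139, and differently numbered ones with -0.158 to 0.144. These ranges overlapped, so no pairing by number was seen. Deviations from means of 3 libraries cannot settle whether same-numbered cultures were set up together.

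For 60 genes and comparisons, 1230 single-gene log2 values were recomputed. Of these, 1147 kept their sign and their side of the threshold, 13 lost a call, 21 gained one and 49 changed sign. Values close to 0 were not all counted as changed. MFN2 at 24 h with total counts, at 0.00, stands among those that kept their sign. Leaving out 1 library, the 24 h values ran from -0.21 to 0.31 for MFN2, -0.28 to 0.19 for OPA1, -0.03 to 1.32 for OMA1, -0.07 to 0.12 for DNM1L, -0.33 to 0.23 for FIS1, -0.16 to 0.42 for MFF, -0.19 to 0.16 for FUNDC1, -0.07 to 0.64 for MARCHF5, -0.06 to 0.32 for VDAC1 and -0.67 to 0.10 for TOMM22. At 48 h they ran from -1.93 to 0.06 for MFN1, -0.83 to 0.05 for OPA1, -0.27 to 0.55 for MIEF2, -0.29 to 0.35 for FUNDC1, -0.04 to 1.71 for EGLN3 and -0.21 to 0.73 for MARCHF5. The difference between times ran from -0.44 to 0.37 for MTFP1 and -1.56 to 0.42 for MFN1, and the DMSO time value of MFN1 from -0.81 to 1.15. By limma-voom the sign also turned for MFN2 at 24 h (-0.04), MFN1 (0.05), FUNDC1 (-0.14) and MARCHF5 (-0.13) at 48 h, the difference for MTFP1 (-0.30) and MFN1 (0.39), and MFN1 with time in DMSO (-0.67). FIS1 at 24 h was 0.01 with no filter and 0.02 with 10 reads in every library, and MIEF2 at 48 h, which was 1.28 by limma-voom, was -0.06 after thinning. FUNDC1 at 24 h was 0.00 with RLE factors, 0.01 with no filter, 0.00 by DESeq2, 0.00 on the 2 groups, 0.05 with the replicate block and 0.11 after thinning.

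The 10 factors rest on 483 to 3996 reads over the 12 libraries, which sets their counting error.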
